A study of Sus scrofa with 80 samples.

Results

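MOXD1 and DAPL1 are 2 of the 23722 genes measured on a custom minipig microarray, and they were chosen by their measured kidney levels, which were lower after 4 weeks of age than before. The choice rested on 8 kidney samples, 4 at 1 and 4 weeks (called younger) and 4 at 2 and 4 months (called older). Between these groups MOXD1 had the lowest difference of all 23722 genes and DAPL1 the lowest but 2, with FBN2, a fibrillin of the extracellular matrix, between them. These kidney differences and the step from 4 weeks to 2 months are therefore described without a test. Tests were run where the choice did not compare the ages or tissues with each other.

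Göttingen minipigs, a small laboratory breed, were sampled from shortly after birth to adulthood to follow gene expression in tissues that matter for juvenile drug safety. Total RNA from 9 tissues was hybridized to 80 one-color Agilent arrays. Kidney, liver, spleen, bone marrow and, from the brain, cortex, hypothalamus and cerebellum each came from 1 female and 1 male at 1 week, 4 weeks, 2 months and 4 months, and from 1 male at 2 years. For testis there was 1 male per age, 5 in all, and for ovary 1 female at 4 ages, none at 2 years. The animals were untreated and came from 1 breeder. The 2-year-old male had been moved to another site, given other food and put down with another pentobarbital product. Its kidney was hybridized 8 times as technical repeats, and 1 further array held its renal pelvis. Averaging the repeats and leaving out the pelvis gave 72 tissue samples. The labels name no animals, and the sexes are the only repeats within a tissue and age. Below, p-values of steps between 2 ages measure the spread between a female and a male. Those of older against younger samples within a tissue, and of tissue order, also hold the spread between the ages put together. Those of sex measure the spread of the male minus female differences over tissues and ages. All 16 arrays of the 2-year age lie on 2 slides and 1 scan day of their own, and age, housing, slide and scan day cannot be told apart for it.

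Levels are given as log2 normalized intensity, with female before male wherever both are listed, and 1 unit is a factor of 2. An array's detection limit, the 95th percentile of its negative control spots, was between 2.29 and 3.39. The scanner software also marks spots as well above background or not, and a level without such a spot is only an upper bound. In bulk tissue fewer cells of a type and less RNA per cell cannot be told apart. The label of the 8 kidney samples was checked with 7 defining kidney genes, among them SLC12A1, the cotransporter of the loop of Henle, and AQP2, the water channel of the collecting duct. Their mean level was between 9.996 and 10.4 in kidney up to 4 months, against 3.17 to 3.27 in liver.

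MOXD1, monooxygenase DBH like 1, belongs to the copper-dependent monooxygenases together with dopamine beta-hydroxylase (DBH) and the peptide-amidating enzyme PAM. It resides in the endoplasmic reticulum, and its substrate is not well established. DAPL1, death associated protein like 1, is a small relative of DAP, a protein linked to growth control and to ribosomes stored in an inactive state, and DAPL1 has been described in differentiating epithelia and in progenitor cells of the fetal kidney. In pigs, unlike in humans, new nephrons still form for some weeks after birth.

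In kidney both genes were high at 1 week, lower at 4 weeks and near the bottom of their range from 2 months on. MOXD1 was at 9.24 and 9.70 at 1 week, 6.82 and 7.47 at 4 weeks, 5.61 and 3.61 at 2 months, and 4.97 and 3.45 at 4 months. The ages did not overlap up to 2 months, and the 2 samples at 4 months lay in the range of those at 2 months or just below it. The sexes were in the same order at 1 and 4 weeks, with the male higher, and in the opposite order at 2 and 4 months, where the male was lower. DAPL1 was at 9.48 and 8.83 at 1 week, 6.67 and 6.63 at 4 weeks, 4.14 and 4.57 at 2 months, and 4.79 and 4.21 at 4 months. Here too the first 3 ages were apart, while 2 and 4 months overlapped.

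Older minus younger, the difference was -3.90 for MOXD1 (8.31 ± 1.38 in younger and 4.41 ± 1.05 in older kidney, SD, n = 4 each). For DAPL1 it was -3.47 (7.90 ± 1.47 and 4.43 ± 0.31). The 4 older samples lay below the 4 younger ones for both genes, a pattern the choice used, and 8.46% of all genes were called in this comparison (limma, Benjamini-Hochberg adjusted p under 0.05). The large SD of the younger group is the difference between 1 and 4 weeks. MOXD1 had spots well above background in all 4 younger kidneys but only in the 2 females among the older ones, and DAPL1 in 3 of the 4 older kidneys, the exception being the male at 4 months. The older means thus contain upper bounds.

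**Figure D1:**
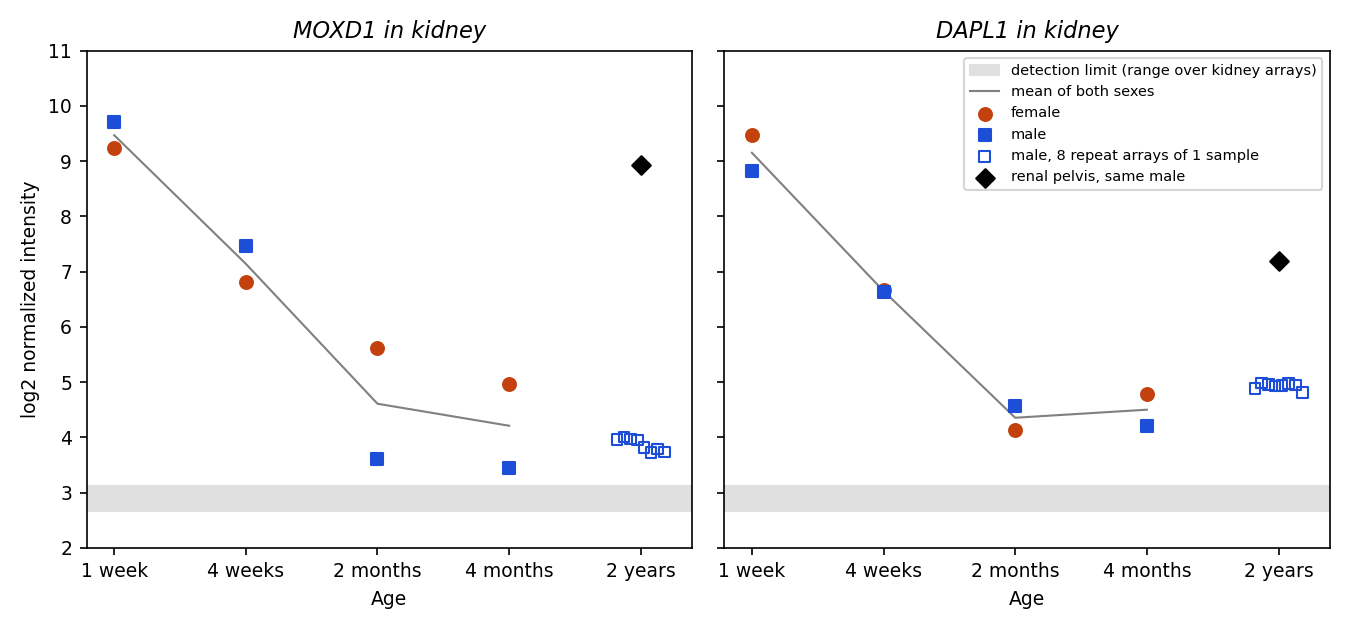
Levels of MOXD1 (left) and DAPL1 (right) in kidney as log2 normalized intensity by age, with circles for females, filled squares for males, open squares for the 8 repeat arrays of the 2-year-old male, diamonds for its renal pelvis and a gray band for the detection limits of the kidney arrays. Both genes are between 8.83 and 9.70 at 1 week and at or below 5.61 from 2 months on, and the renal pelvis lies above every kidney repeat.

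Within the first 4 weeks the kidney level of DAPL1 fell, and that of MOXD1 was lower in both sexes without passing the test. From 1 to 4 weeks, a step inside the younger group, the difference was -2.33 for MOXD1 (SE 0.68) and -2.50 for DAPL1 (SE 0.28), beside -2.53 and -2.29 in the step from 4 weeks to 2 months. DAPL1 was called in the first step (5.67-fold, limma adjusted p = 0.0178, lower in both sexes), and MOXD1 was not (adjusted p = 0.233), in a comparison where 0.388% of all genes were called and 0.266% called lower. Both ages belong to the younger group of the choice, whose mean had to be high. With scan day as a block the MOXD1 difference was -1.40 (adjusted p = 0.632), and the DAPL1 difference was -2.31 and no longer called (adjusted p = 0.0827). The DAPL1 step was not called either without any 1 of the 4 samples of the step. From 2 to 4 months the differences were -0.40 for MOXD1 (SE 0.68, adjusted p = 0.836) and 0.15 for DAPL1 (SE 0.28, adjusted p = 0.857), neither called, with 0.00422% of all genes called.

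The 8 kidney arrays up to 4 months lie on 8 slides and were scanned on 4 days, 2 arrays a day, so that ages can be compared within a day. On the first day the female at 4 months minus the female at 1 week was -4.27 for MOXD1 and -4.69 for DAPL1. On the second day the male at 4 weeks minus the male at 1 week was -2.24 and -2.19. On the fourth day the male at 2 months minus the female at 4 weeks was -3.21 and -2.10, where age and sex cannot be told apart. The third day held only older kidneys, the female at 2 months and the male at 4 months, where the second minus the first was -2.16 for MOXD1 and 0.07 for DAPL1. With scan day as a block the older minus younger differences were -3.74 and -3.39.

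Both genes are read by 2 different probes, which moved together. Across the 80 arrays the probes of a gene correlated at 0.993 for each gene. In kidney, older minus younger was -3.72 and -4.08 for the probes of MOXD1 and -3.58 and -3.37 for those of DAPL1. None of their spots was saturated or marked as an outlier.

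In the 2-year-old male the whole-kidney RNA stayed low while the renal pelvis, the collecting funnel lined by urothelium and surrounded by smooth muscle, was high. MOXD1 was between 3.72 and 4.00 in the 8 kidney repeats (mean 3.87, SD 0.12) and at 8.94 in the pelvis. No MOXD1 spot of the 8 repeats was well above background, so the pelvis was at least 33.6-fold higher. DAPL1 was between 4.81 and 4.98 in the repeats (mean 4.93, SD 0.058) and at 7.19 in the pelvis, 2.26 above the kidney mean. The pelvis is a single array, so the difference has no replicate check, and the SD covers array error only.

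Marker genes differed between pelvis and kidney as well. UPK3A, an uroplakin of the urothelial surface, was at 9.93 in the pelvis and 7.34 in the 2-year kidney. CNN1, calponin of smooth muscle, was at 10.86 against 7.63. UPK3A and CNN1 had the widest gaps between pelvis and kidney in their lists and were named for that. The 7 urothelial genes measured had a mean level of 5.00 in the pelvis and 4.35 in the 2-year kidney, and the 4 smooth muscle genes 10.66 and 8.48. The urothelial genes went both ways, with UPK2 at 4.95 in the pelvis against 5.17 and KRT20 at 2.54 against 2.76. The mean of the 7 kidney genes was 8.47 in the pelvis and 9.79 in the kidney, but SLC12A1, at 12.04 against 10.44, and AQP2, at 10.24 against 8.68, were higher in the pelvis. In the 8 younger and older kidneys the urothelial mean was between 4.34 and 5.09 in younger and between 4.12 and 4.43 in older samples, and the smooth muscle mean between 8.86 and 10.39 and between 8.92 and 9.90, overlapping in both cases. None of these 11 genes was called between older and younger kidney. KRT5, a keratin of basal urothelium, exceeded the detection limit in only 1 of 8 kidneys. The part of pelvis tissue in the kidney values was not tested.

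**Figure D2:**
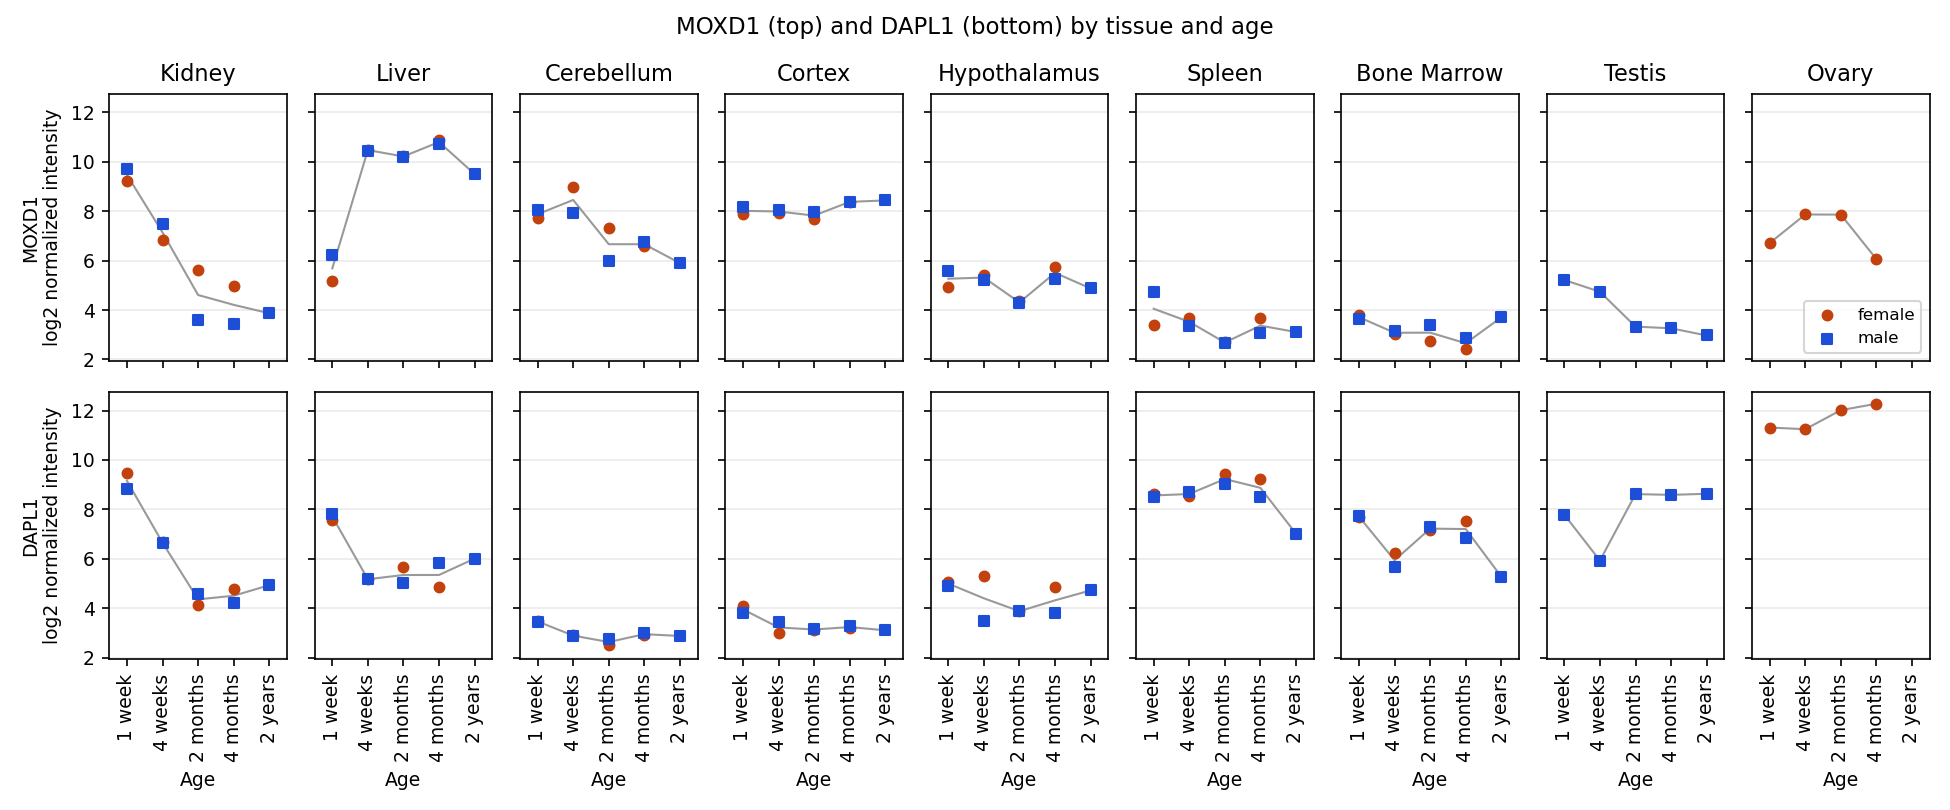
Levels of MOXD1 (top row) and DAPL1 (bottom row) in 9 tissues as log2 normalized intensity by age, with circles for females, squares for males and lines through the means, and the 8 kidney repeats at 2 years averaged. MOXD1 in liver rises from at most 6.21 at 1 week to at least 10.45 at 4 weeks, while DAPL1 in liver is lower at 4 weeks than at 1 week, as it is in kidney.

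MOXD1 took the opposite course in liver. It was at 5.16 and 6.21 at 1 week, 10.50 and 10.45 at 4 weeks, 10.24 and 10.19 at 2 months, 10.88 and 10.72 at 4 months, and 9.51 in the male at 2 years. The rise lay between 1 and 4 weeks, and no liver sample after 1 week came near the first 2. The step was 4.79 (SE 0.31, 27.6-fold, limma adjusted p = 0.000577), called in a comparison where 0.94% of all genes were called and 0.185% were called higher. It was also called without each of the 8 liver samples in turn, with values between 4.26 and 5.31. The difference between the liver and the kidney step, in 1 fit over 56 samples, was 7.12 (SE 0.68, adjusted p = 3.91e-08), where 1.21% of all genes were called. The kidney part of it, -2.33, came from the younger group of the choice, whose mean had to be high. Its p-value is therefore not independent of the choice. Both liver arrays at 1 week were scanned on 1 day that held no liver of 4 weeks, so no step can be taken within a scan day. With slide as a covariate in the fit over 56 samples, which uses the other tissues on those slides, the liver step was 4.75 (adjusted p = 1.5e-05). Older minus younger, a split that puts 1 and 4 weeks together, gave 2.43 in liver (SE 1.101, adjusted p = 0.289), not called, with 1.81% of all genes called. In the fit over 56 samples, where all tissues share 1 estimate of spread, the same difference was called (adjusted p = 2.9e-06), whereas with scan day as a block within liver it was 0.063 (adjusted p = 0.955).

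DAPL1 fell in liver over the same step. It was at 7.59 and 7.83 at 1 week and at 5.17 in both sexes at 4 weeks, then at 5.66 and 5.02 at 2 months, 4.85 and 5.84 at 4 months, and 6.00 at 2 years. The step was -2.54 (SE 0.35, 5.81-fold, adjusted p = 0.0218), next to 0.755% of all genes called lower. With the same limit from the choice by kidney values, the difference between the liver and the kidney step of DAPL1 was -0.04 (SE 0.53, adjusted p = 0.992). The liver call was lost without any 1 of the 4 samples at 1 and 4 weeks (adjusted p from 0.098 to 0.142), with values between -2.66 and -2.42. Older minus younger was -1.097 (SE 0.61, adjusted p = 0.389), and -0.24 with scan day as a block.

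Some genes of red blood cells and of dividing cells also fell in liver and kidney over this step. Of 5 red blood cell genes 2 were called lower in liver, next to 0.755% of all genes called lower. SLC4A1, the anion exchanger of the red cell membrane, was 1 of them, with a difference of -1.92. The mean level of the 5 genes was 9.26 in both livers at 1 week and 7.23 to 7.95 at 4 weeks. In kidney HBA1 and HBB, the globin chains, were called lower, with differences of -2.96 and -2.90, next to 0.266% of all genes called lower. The mean of the 5 genes in kidney went from 6.77 and 7.10 to 5.73 and 5.74. At 2 and 4 months the red cell mean in kidney was between 5.69 and 5.96. CCNB1, the cyclin of mitotic entry, was the 1 of 18 proliferation genes called lower in each organ, with differences of -1.06 in kidney and -1.73 in liver. The shares of all genes called lower beside it are the same 0.266% in kidney and 0.755% in liver. These red cell genes were picked out after their values were seen, and the part of blood in the MOXD1 and DAPL1 steps was not tested. Of 6 liver proteins looked up to check the label, ALB, TTR, APOA1, FGB and TF were higher in every liver sample than in any other array, and SERPINA1 was not.

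DAPL1 in bone marrow was lower at 4 weeks than at 1 week. It was at 7.67 and 7.73 at 1 week, 6.23 and 5.65 at 4 weeks, 7.15 and 7.29 at 2 months, 7.55 and 6.86 at 4 months, and 5.28 at 2 years. The first step was -1.76 (SE 0.29, 3.40-fold, limma adjusted p = 0.0245), with 1.75% of all genes called and 1.48% called lower, and -2.08 within the 1 scan day that held both ages. The difference of 1.28 from 4 weeks to 2 months was not called (adjusted p = 0.283), with 0.0464% of all genes called. The fall was not called without any 1 of the samples at 1 and 4 weeks (adjusted p from 0.0522 to 0.171). In the same step DES, the muscle intermediate filament, and COL3A1, a fibrillar collagen, were called lower, with differences of -3.93 and -2.74, the only called members of the smooth muscle and fibroblast lists there. The mean of the 4 smooth muscle genes went from 9.18 and 9.51 to 7.09 and 7.43. Whether this shift in other cells took part in the DAPL1 difference was not tested. MOXD1 in bone marrow was between 2.43 and 3.79 with no spot well above background on any array.

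In cerebellum MOXD1 went down with age. It was at 7.71 and 8.05 at 1 week, 8.99 and 7.92 at 4 weeks, 7.33 and 6.00 at 2 months, 6.57 and 6.75 at 4 months, and 5.90 at 2 years. The 4 older samples lay below the 4 younger ones, where 2.29% of all genes were called and 1.34% called lower, and the difference was -1.50 (SE 0.31, 2.83-fold, limma adjusted p = 0.0394). The 2 scan days that held both age groups gave -1.17 and -2.41. With scan day as a block the difference was -1.79 and not called (adjusted p = 0.121), and leaving out 1 sample at a time kept the call in 3 of 8 cases. DAPL1 was near the detection limit in cerebellum, between 2.52 and 3.49, with no spot well above background.

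Elsewhere neither gene was called with age. In cortex MOXD1 was between 7.67 and 8.39 up to 4 months and at 8.44 at 2 years, a range of less than 1 unit in 9 samples. In hypothalamus it was at 4.94 and 5.59, 5.42 and 5.21, 4.35 and 4.27, and 5.74 and 5.28 at the first 4 ages, with the lowest pair at 2 months. Neither the difference from 4 weeks to 2 months (limma adjusted p = 0.707) nor that from 2 to 4 months (adjusted p = 0.429) was called, in steps where 0% and 0.00422% of all genes were called. No gene was called by limma there between older and younger samples, and 2264 had an unadjusted p under 0.05. In spleen MOXD1 was at 3.39 and 4.71 at 1 week and between 2.68 and 3.68 later, with spots well above background only in the male at 1 week. DAPL1 in spleen stayed between 8.48 and 9.42 up to 4 months and was at 7.02 at 2 years, the lowest spleen value. Older minus younger in spleen was 0.46 for DAPL1 (adjusted p = 0.226) and -0.76 for MOXD1 (adjusted p = 0.237), with 3.11% of all genes called. In cortex DAPL1 was between 2.99 and 4.09 without a spot well above background, and in hypothalamus between 3.48 and 5.31. Cortex had 1.77% of all genes called between older and younger samples, and bone marrow 0.733%. Among the 12 tests of older against younger samples outside kidney, MOXD1 in cerebellum was the only call. Among the 14 tests of the step from 1 to 4 weeks in 7 tissues, the 4 calls were MOXD1 in liver and DAPL1 in liver, kidney and bone marrow. The other tissues had 0.455% of all genes called in that step in cerebellum, 0.00843% in cortex and in hypothalamus, and 33.5% in spleen, where neither gene was called.

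**Figure D3:**
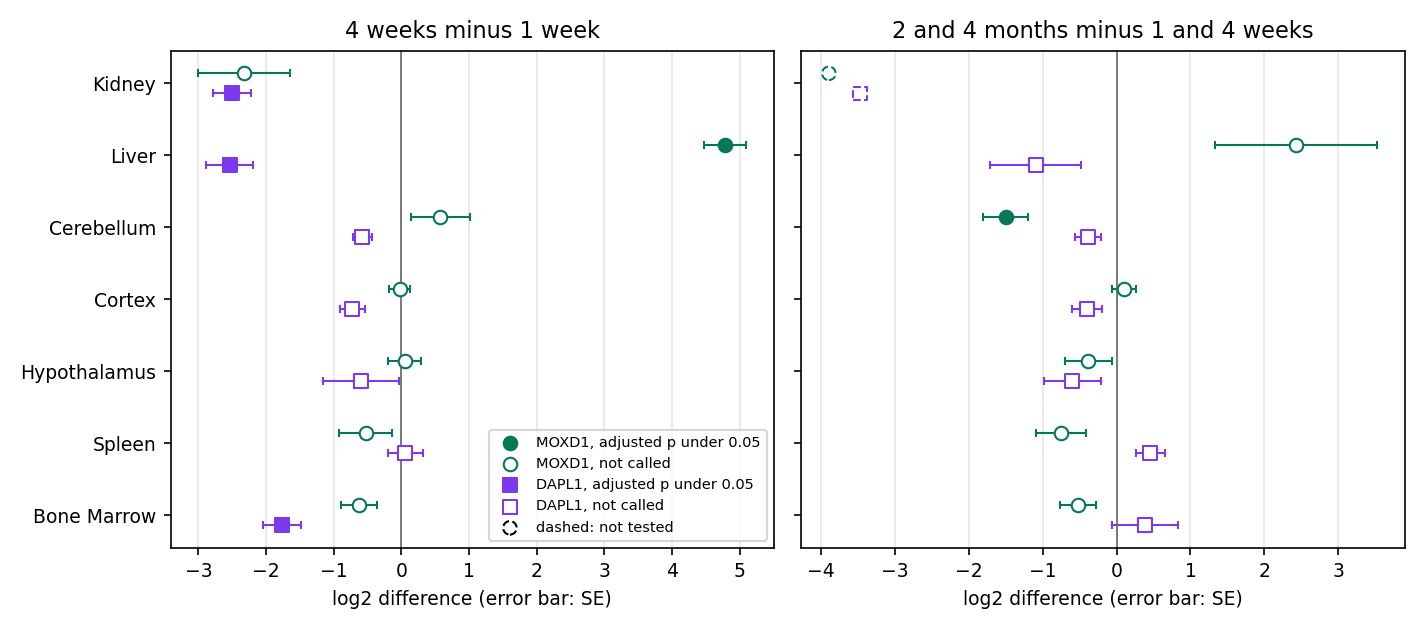
Differences of MOXD1 (circles) and DAPL1 (squares) in 7 tissues on the log2 scale with SE, from 1 to 4 weeks (left) and between older and younger samples (right), where filled symbols passed a limma adjusted p of 0.05, open ones did not, and the dashed kidney symbols on the right chose the genes and were not tested. MOXD1 is 4.79 higher at 4 weeks than at 1 week in liver, and DAPL1 is lower by 2.54, 2.50 and 1.76 in liver, kidney and bone marrow.

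The gonads had 1 sample per age and give values only. In testis MOXD1 was at 5.21, 4.74, 3.33, 3.26 and 2.97 from 1 week to 2 years, each value below the one before, and the last 3 without a spot well above background. DAPL1 in testis was at 7.78, 5.93, 8.62, 8.59 and 8.63, lowest at 4 weeks. In ovary MOXD1 was at 6.71, 7.87, 7.86 and 6.06 from 1 week to 4 months. DAPL1 in ovary was at 11.31, 11.24, 12.01 and 12.27, the highest DAPL1 values of the 80 arrays.

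Over the samples up to 4 months, MOXD1 was highest in liver (mean 9.29, SD 2.26, n = 8), then cortex (8.05, SD 0.24), cerebellum (7.42, SD 0.95), ovary (7.13, SD 0.89, n = 4), kidney (6.36, SD 2.37), hypothalamus (5.10, SD 0.54), testis (4.14, SD 0.99, n = 4), spleen (3.41, SD 0.66) and bone marrow (3.13, SD 0.46). Kidney and liver had the widest spread, and kidney at 1 week was above every other tissue of that age. Kidney was left out of the tests of order, since its values had chosen the genes. Of the 7 neighboring pairs of the other 8 tissues, ovary and hypothalamus alone differed beyond their spread (2.03, exact two-sided permutation test, adjusted p = 0.0141 over 14 tests of both genes). The other neighboring pairs did not pass the test, which pools ages and does not pair samples of the same age and sex. Liver at 1 week, at 5.16 and 6.21, was below every cortex sample up to 4 months, the lowest of which was at 7.67. From 4 weeks to 4 months the lowest liver, at 10.195, was above the highest cortex sample, at 8.39. On the mean over these samples, liver was at least 58.4-fold above bone marrow, where no array had a MOXD1 spot well above background. At 1 week the 2 tissues were closer, with liver at 5.16 and 6.21 and bone marrow at 3.79 and 3.63.

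DAPL1 was highest in ovary (11.71, SD 0.51, n = 4), then spleen (8.82, SD 0.36), testis (7.73, SD 1.26, n = 4), bone marrow (7.02, SD 0.74), kidney (6.16, SD 2.10), liver (5.89, SD 1.17), hypothalamus (4.40, SD 0.71), cortex (3.38, SD 0.38) and cerebellum (2.98, SD 0.33), with n = 8 where none is given. Ovary was above spleen by 2.89 (exact two-sided permutation test, adjusted p = 0.0141), the smallest p that 4 against 8 samples allow before adjustment being 0.00202. Liver was above hypothalamus by 1.49 and hypothalamus above cortex by 1.01 (exact permutation tests, adjusted p = 0.0174 each). Cortex had no DAPL1 spot well above background, and in hypothalamus only 4 of 8 arrays had any. Both of these means thus contain upper bounds, and no smallest fold can be given for hypothalamus over cortex. The other 4 neighboring pairs did not pass the test after adjustment. The test does not pair samples of the same age and sex, and in all 8 such pairs DAPL1 was higher in cortex than in cerebellum, with no spot well above background in either. The 3 brain regions were thus the lowest tissues for DAPL1, while cortex and cerebellum were near the top for MOXD1.

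No difference between the sexes was called for either gene. In the 28 pairs matched for tissue and age, male minus female was -0.05 for MOXD1 (SE 0.13, limma adjusted p = 0.96) and -0.17 for DAPL1 (SE 0.097, adjusted p = 0.638), with 0.253% of all genes called. Within kidney, over 4 pairs, it was -0.60 (SE 0.45, adjusted p = 0.835) and -0.21 (SE 0.20, adjusted p = 0.854), with 0.0169% called. Whether the order of the sexes for MOXD1 changed with age in kidney was not tested.

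The relatives of each gene were compared between older and younger kidney. DBH, which makes noradrenaline from dopamine, was at 2.13 in younger and 2.82 in older kidney, a difference of 0.69 that was called (limma adjusted p = 0.0491), and only 2 of 8 samples exceeded the detection limit. PAM was at 2.06 and 1.75, above the limit in none, and was not called. Of 12 genes of copper transport and delivery, 1 was called, HEPH, the copper oxidase hephaestin, higher by 0.65, a share close to the 8.46% over all genes. Of 3 genes of catecholamine synthesis DBH was the only call. Among 6 genes of the death associated protein family and of ribosome dormancy, DAP itself was called lower, from 11.79 to 11.32 (-0.47, adjusted p = 0.0303), and HABP4, a ribosome-binding protein, higher by 0.84 (adjusted p = 0.0244). EIF5A differed by 0.41, EIF5A2 by -0.19, SERBP1 by 0.03 and EEF2 by -0.33, none of them called. The medians of these lists were 0.19, 0.11, 0.14 and -0.08 for the monooxygenases, copper transport, catecholamine synthesis and DAP lists, against 0.02 over all genes.

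Lists of the cells of a forming kidney held called genes in unequal numbers, and the difference between lists was not tested. Of 18 proliferation genes 12 were called lower and none higher (median -1.24), where 4.74% of all genes were called lower. TOP2A, the topoisomerase of dividing cells, differed by -2.98, CCNB1 by -2.23 and MCM5, a part of the replicative helicase, by -2.06. Their mean level was between 5.32 and 6.11 in younger and between 4.37 and 4.76 in older kidney, without overlap. Of 8 interstitial fibroblast genes 4 were lower and none higher (median -0.85). COL1A2 and COL3A1, fibrillar collagens, differed by -2.02 and -1.96 and FN1, fibronectin, by -1.05, and the mean of the list was 8.49 to 9.42 in younger and 7.67 to 8.16 in older kidney.

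Of 12 genes of the cap mesenchyme, the pool of nephron progenitors, only CITED1, a transcriptional coregulator that marks that pool, was called, with -0.92 (list median -0.13), next to 4.74% of all genes called lower. Of 7 genes of the early nephron only JAG1, a Notch ligand, was called, with -0.93 (list median -0.23). The mean level of the cap mesenchyme list was 5.35 to 5.61 in younger and 5.20 to 5.33 in older kidney, and that of the early nephron list 6.572 to 7.36 and 6.39 to 6.571. In both lists the younger and older ranges almost touched, and their separation was not tested. The early nephron mean was 7.30 to 7.36 at 1 week and already 6.57 to 6.77 at 4 weeks. WNT4, the signal that turns progenitors into epithelium, was named after its values were seen: it went from 8.00 and 8.05 at 1 week to 3.95 and 5.19 at 4 weeks, a step of -3.46 that was called (limma adjusted p = 0.0172), while its older minus younger difference of -2.32 was not (adjusted p = 0.0989). WNT4 was called lower over that step in liver as well (-1.55). Of 6 ureteric tip genes ETV5, a transcription factor downstream of RET, was called higher by 1.20, and of 5 stromal progenitor genes none was called, next to 8.46% of all genes called. FOXD1, which defines the stromal progenitors, did not exceed the detection limit in any of the 8 kidneys.

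In the remaining lists there were few calls. AQP2 and SLC12A3, the cotransporter of the distal tubule, were called higher by 1.15 and 0.88, among 7 kidney genes with a median of 0.02. Among 8 leukocyte genes CD3E, a part of the T cell receptor complex, was called higher by 2.47 (list median 0.39). None of 6 adrenal genes and none of 5 red blood cell genes was called. These calls depended on the treatment of scan day. With it as a block no gene of the array was called by limma in older against younger kidney, and 2687 had an unadjusted p under 0.05. The list medians were then -1.26 for proliferation and -0.94 for fibroblasts, with -1.72 and -0.95 on the first scan day and -0.80 and -0.96 on the fourth. Whether dividing cells or fibroblasts carried MOXD1 or DAPL1 was not tested.

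**Figure D4:**
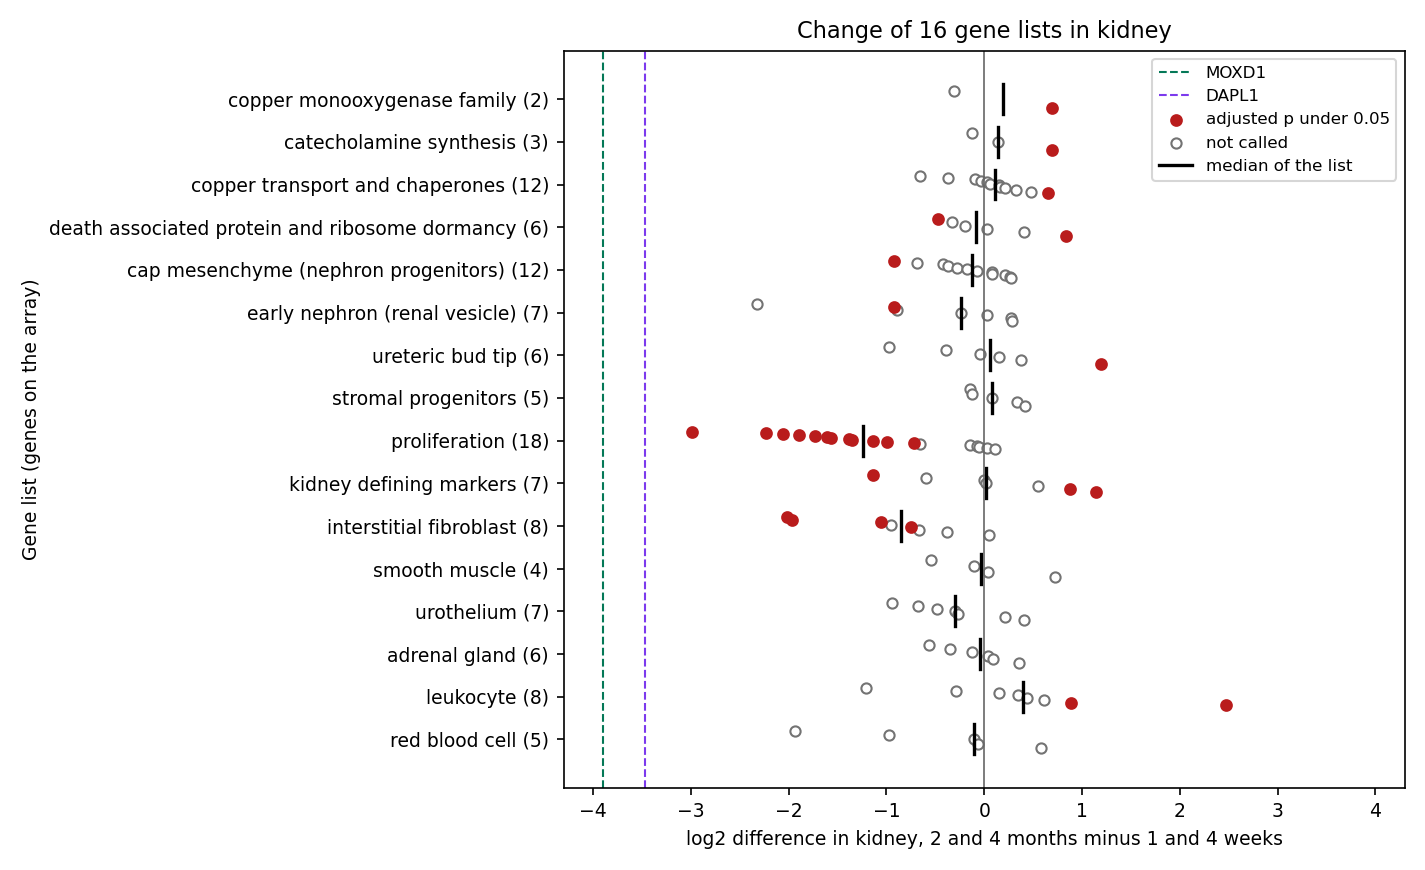
Log2 difference in kidney, 2 and 4 months minus 1 and 4 weeks, of each measured gene in 16 lists, with red points for genes with a limma adjusted p under 0.05, open points for the others, black bars for list medians and dashed lines for MOXD1 and DAPL1. The proliferation list has 12 red points below 0 and a median of -1.24, and the fibroblast list 4 and -0.85, while the dashed lines lie at the differences of -3.90 and -3.47 by which MOXD1 and DAPL1 were chosen.

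The 4 genes next to them on the pig genome, taken from RefSeq's Sscrofa11.1 annotation, included none that was called lower. STX7 and CTGF flank MOXD1 and differed by 0.35 and 0.08 in kidney, older minus younger, neither called. PKP4 and TANC1 flank DAPL1 and differed by 0.16, not called, and 0.65, called higher (limma adjusted p = 0.0316). None of the 4 was called in the liver step from 1 to 4 weeks.

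Some genes resembled each of them closely in their pattern over the samples. Over the 72 tissue samples, the genes most correlated with MOXD1 were MTUS1, GSTT1, ZNF295, FADS6 and ZNF491, with Pearson's r from 0.759 to 0.742, and those with DAPL1 were EIF3M, TGIF2, COL6A3, RPS6 and CHST14, from 0.856 to 0.832. MOXD1 and DAPL1 themselves correlated at -0.311 there. These samples group by tissue, and samples of a tissue are not independent points. Over the 9 kidney samples, which share the fall with age, the nearest genes to MOXD1 were NCAM1, a neural cell adhesion molecule, IGFBP2, an insulin-like growth factor binding protein, NT5E, TRERF1 and C7orf58, with r from 0.989 to 0.987. The nearest to DAPL1 were MEX3A, RBP2, HEY1, SEMA4F and PIK3AP1, from 0.986 to 0.983. MOXD1 and DAPL1 correlated at 0.930 in kidney, which placed DAPL1 at 267 and MOXD1 at 237 among the 13192 genes ranked for the other. Both were chosen by their fall in kidney, so a high correlation there follows from the choice. Of these 10 genes MEX3A had the widest gap, from 6.36 in younger to 3.10 in older kidney, followed by RBP2, from 5.79 to 3.54.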

How the data were processed

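The authors deposited 1 scanner output per array (Agilent Feature Extraction 11.5.1.1, per the labels) with raw spot intensity not normalized between arrays, and a table of log2 values, whose equal distributions between arrays mark them as quantile normalized. From the median intensity, background was corrected by normexp (offset 0), outlier spots were left out, and quantile normalization and log2 followed as the study's methods describe, then averages over spots and probes. Files with 62976 spots per array gave 23722 genes after 14 incomplete ones were dropped. Accessions without a symbol were looked up in RefSeq, which named 2453 of 10818. No column of other samples was present (0 unused). The median raw intensity of an array was 27 to 89 over gene spots and 17 to 25 over negative controls, and the median SD over technical repeats was 0.115 log2 units. The number of arrays limits the precision.

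Ages were compared with limma 3.58.1 in R 4.3.3, within a tissue on 8 samples with an age mean each or with older and younger groups, and with Benjamini-Hochberg adjustment over 23722 genes at 0.05. Tissue levels were compared with exact permutation tests in Python 3.11.15. The design was fitted as planned. The limma fit and the permutation test were checked on simulated data. The liver and bone marrow steps and their difference from kidney, the deposited log2 values and scan day as a block were added after seeing the data. Alternatives covered the processed intensity, an offset of 50, median scaling, probe medians, a filter on dim genes, sex as a block, 1 fit over 56 samples, slide and leaving out samples.

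The 2 genes and all lists were chosen with earlier results of these data known. Named were both genes, their 5 nearest genes by correlation among those above the detection limit in at least 4 samples, the 3 called genes with the largest change per list and all members of the 2 small families. Some genes were named outside this rule, among them marker genes of the pelvis comparison, and not every one is marked as such. Values of some single list genes are not reported here.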

Additional observations from a re-analysis of the deposited data

Results flagged for a closer look

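The MOXD1 step from 1 to 4 weeks differed between liver and kidney by 7.12 log2 units (SE 0.68, limma adjusted p = 3.9e-08), a rise in one and a fall in the other, in both sexes of each. The kidney step lies inside the younger group that chose the gene, so this p-value is not independent of the choice.

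The renal pelvis array, which no comparison of groups used, held MOXD1 at 8.94 and DAPL1 at 7.19, both above each of the 8 kidney repeats of the same animal. The pelvis was hybridized once and has no control array of another animal.

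DAPL1 in hypothalamus at 2 and 4 months had 1 sample far from the other 3, the female at 4 months at 4.84, with a gap to the nearest sample that took up 0.917 of the range. It was the only one of the 4 with a spot well above background. Of 30 groups examined in this way 1 stood out, and chance sets apart about 1 in 20.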

How the results depend on the processing

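Among the main values and counts under all alternatives, 414 kept their direction and side of the threshold, 19 lost and 5 gained a call, 16 reversed and 2 moved. The causes were not tested.

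In the fit over 56 samples MOXD1 was called in the kidney step from 1 to 4 weeks (-2.33, limma adjusted p = 0.00532), and older minus younger liver was called for MOXD1 (2.43) and DAPL1 (-1.10), also with slide as a covariate (2.53 and -1.18), under which MOXD1 in cortex was -0.053. With the deposited values the calls of DAPL1 in the kidney step (-2.79, adjusted p = 0.0787) and liver step (-2.79, adjusted p = 0.0643), of MOXD1 in cerebellum (-1.52, adjusted p = 0.0750) and of DAPL1 in the bone marrow step (-1.91, adjusted p = 0.0661) were lost. With scan day as a block the calls of DAPL1 in the kidney step (-2.31) and MOXD1 in cerebellum (-1.79) were lost, the MOXD1 kidney step was -1.40, older minus younger liver was 0.063 for MOXD1 and -0.24 for DAPL1, and older minus younger was 0.059 for DAPL1 in cerebellum and 0.070 and 0.31 for MOXD1 and DAPL1 in hypothalamus. From 2 to 4 months DAPL1 in kidney was -0.045 with that block and -0.082 with processed signals. An offset of 50, which compresses low values, gave -1.14 for MOXD1 in cerebellum (adjusted p = 0.0799), 0.45 for DAPL1 liver minus kidney, and -2.35 and -2.08 for MOXD1 and DAPL1 in older minus younger kidney.

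Leaving out 1 sample at a time gave -2.83 to -2.18 for DAPL1 in the kidney step (called in 4 of 8 cases, adjusted p up to 0.160), -1.40 to 0.60 for MOXD1 and -0.14 to 0.43 for DAPL1 from 2 to 4 months, -1.72 to -1.23 for MOXD1 in cerebellum, where the call was lost without either sample at 1 week or 4 months or the male at 4 weeks, -0.00032 to 0.69 for DAPL1 in older minus younger bone marrow, -2.66 to -2.42 for DAPL1 in the liver step, -0.36 to 0.29 for its difference from kidney, and -0.11 to 0.038 for MOXD1 between the sexes when a tissue was left out.

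Counts of genes called moved by over 1.5 times. Older against younger kidney gave 2006, 5613 in the fit over 56 samples, 0 with scan day as a block and 375 to 4507 without 1 sample. The kidney step gave 92, 59 with median scaling, 60 with deposited values, 15 with scan day, 517 and 180 over 56 samples without and with slide, and 3 to 106 without 1 sample. Kidney from 2 to 4 months gave 1, 6 with processed signals, 3 with an offset of 50 or deposited values, 2 with median scaling, 0 with scan day, 710 and 68 over 56 samples, and 1 to 522. The liver step gave 223, 112 with deposited values, 1029 over 56 samples, over 1.5 times 223 with slide as well, and 34 to 172. Cerebellum gave 544, 325 with processed signals, 308 with median scaling, 242 with deposited values, 195 with scan day, 1752 and 866 over 56 samples, and 17 to 930. The sexes gave 60 and 36 to 48.

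Sex is the only number that samples of different ages share, and their deviations did not pair (r from -0.02 to 0.23 in kidney). With sex as a replicate block no call of either gene changed, and DAPL1 in the kidney step was -2.50 (adjusted p = 0.0263). Without the block of tissue and age the test of sex called 27 genes. Levels near the detection limit, as those of MOXD1 in bone marrow and DAPL1 in cortex and cerebellum, limit what can be compared.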
